A study of Mus musculus with 3 samples.

Results

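The data describe 10 abundant genes grouped as actin cytoskeleton genes, Actb, Actg1, Tmsb4x, Pfn1, Cfl1, Gsn, Capg, Lcp1, Coro1a and Vim, in the RNA of apoptotic bodies (ABs). Of these, Vim encodes an intermediate filament protein. Their transcripts are those of the mRNA table whose GENCODE M21 gene symbol is 1 of these 10 names. All 10 genes had rows, with 70 of the 56651 transcripts and 10 of the 15861 genes listed. The genes were picked from the gene sums and the transcript shares of these same libraries, so both are given as a description, with no test. For each gene the summed reads of its transcripts were set beside the share of each transcript in that sum.

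The study asked how the RNA carried by ABs differs with the stage of the cell that sheds them, and the authors made a single library per stage, named BMM-ABs, pOC-ABs or mOC-ABs, from C57BL/6 mice of 11 weeks. Bone marrow macrophages (BMMs) were grown from flushed marrow with the growth factor M-CSF at 50 ng/mL for 72 h. Preosteoclasts (pOCs) then had M-CSF at 30 ng/mL and RANKL, the cytokine that drives osteoclast formation, at 100 ng/mL for 24 h, and mature osteoclasts (mOCs) had the same for 72 h or longer. These times and doses are those of the labels. The methods of the study give BMMs a shorter time with M-CSF and name M-CSF at 50 ng/mL with RANKL. For mOCs the study names a time longer than 72 h. The labels name alendronate, 500 μM for 12 h, as the agent that made all 3 groups of cells shed ABs, while the methods name staurosporine. The titles of the samples name the cells and the design text names ABs, and the libraries are treated here as ABs. G1 stands for pOC-ABs against BMM-ABs, G2 for mOC-ABs against BMM-ABs and G3 for mOC-ABs against pOC-ABs. Each library enters 2 of these 3 comparisons, so they are not independent. With 1 library per group no difference can be set against a spread between replicates, and no p-value is given. Where 3 values follow each other without a group name, they belong to BMM-ABs first, pOC-ABs next and mOC-ABs last. Intervals are exact binomial (Clopper-Pearson) intervals of the ratio of reads, or Wilson intervals of a share, at 95%. They cover the counting error of reads only. Spread between libraries and error in dividing the reads of a gene between its transcripts are not covered. The reads also carry no molecular identifiers.

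Actin filaments grow from monomers that profilin delivers and thymosin beta 4 holds back. Cofilin and gelsolin cut filaments, gelsolin and CapG cap their fast-growing ends, plastins bundle them, and coronins act on the Arp2/3 complex that branches them. In osteoclasts these filaments form podosomes, which assemble into the actin ring that seals off the bone to be resorbed. During apoptosis, contraction of the actin cytoskeleton drives blebbing and the break-up of the cell into ABs.

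Capg, Lcp1 and Coro1a gave most of their reads to different transcripts in mOC-ABs than in the other two libraries. In all 3 genes these transcripts carry the same annotated coding sequence and differ in the exons before it and, in Capg and Lcp1, also in where the 3′ end lies. The joins are printed here because they are the letters by which the transcripts differ at their 5′ side. The capitals mark the last 15 bases of the exon upstream, the lower case marks the first 15 bases of the exon that holds the start codon, and all were read from GENCODE M21 transcripts on GRCm38.
Capg-201: AACCCCCGAGAGCAAgtctgcaaacagcat
Capg-202: AAGGCCCGTGGAGAGgtctgcaaacagcat
Capg-203: GTGCTAGGATTACAGgtctgcaaacagcat
Lcp1-209: CAGTTTCTCTACCAGgtctgtcacctaaag
Lcp1-202: CAACTGAGAATTCAAgtctgtcacctaaag
Lcp1-206: TGTGTGTGACGAAAGgtctgtcacctaaag
Coro1a-201: AGCTCTCCGCAGCAGgatgagccggcaggt
Coro1a-202: AGGCAGAGCAGATGGgatgagccggcaggt
Within each gene the lower-case letters are the same in every transcript, and the capitals differ. Of the lines above, Capg-203, Lcp1-206 and Coro1a-202 are the forms that led in mOC-ABs.

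Per library, the mRNA table held 9100082, 7387317 and 7705592 reads. Levels are given as reads, or as RPM (reads-per-million, the reads scaled to the total of each library), and log2 ratios compare RPM. The 10 genes together took 0.679%, 0.830% and 0.933% of these reads. Macrophage markers were listed in all 3 libraries (Csf1r, the receptor of M-CSF, at 9870, 2640 and 3902 reads, and Cd68 at 6638, 4794 and 5056 reads), and the 5 markers summed to 1901, 1049.9 and 1179 RPM. Adgre1, the F4/80 antigen, had 777, 318 and 122 reads, and Mrc1 and Mertk stayed at 10 reads or fewer. Of 9 osteoclast markers 8 had rows and 7 were higher in mOC-ABs than in BMM-ABs, with summed levels of 63.0, 206 and 772 RPM, led by Acp5 (88, 292 and 2157 reads) and Atp6v0d2 (187, 873 and 2338 reads). Itgb3, the integrin chain of the osteoclast, went the other way with 6, 3 and 0 reads. Markers of B cells, T cells, stromal and endothelial cells each summed, per cell type, to at most 47 reads in any library, and 0 of the 5 neutrophil and 3 erythroid markers looked up had rows. In these bulk libraries fewer ABs of a type and less RNA per AB cannot be told apart, and the part of these markers' differences in the results was not tested.

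The sums of the 10 genes differed between the ABs by log2 ratios from -0.70 to 1.05 over the 3 comparisons. None of the 10 passed a 2-fold limit in G1, where 1.65% of the 5324 genes with at least 1000 reads over the 3 libraries were above 2 and 3.34% below 0.5, or 5.00% in all. In G2 only Gsn did, upward, against 2.03% of genes above 2, 4.19% below 0.5 and 6.22% in either direction. In G3 none did, against 1.47% above 2, 2.10% below 0.5 and 3.57% in all. For 10 genes these counts lie near the percentages over all genes, so nothing is read from them about the 10 genes. The median log2 ratio of the 10 genes was 0.30, 0.34 and 0.17 in G1, G2 and G3, beside -0.04, 0.00 and 0.02 over all genes tested. In G1 8 of the 10 lay above 0, and in G2 and in G3 7 of the 10 did. Of the 5324 genes tested, 2472, 2672 and 2822 lay above 0 in G1, G2 and G3. The 10 genes were picked from these same sums, so nothing is read from their medians or signs. Scaling to the reads of the mRNA and lncRNA tables together shifted the median of all genes by -0.20, -0.10 and 0.10 in the same order.

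**Figure D1:**
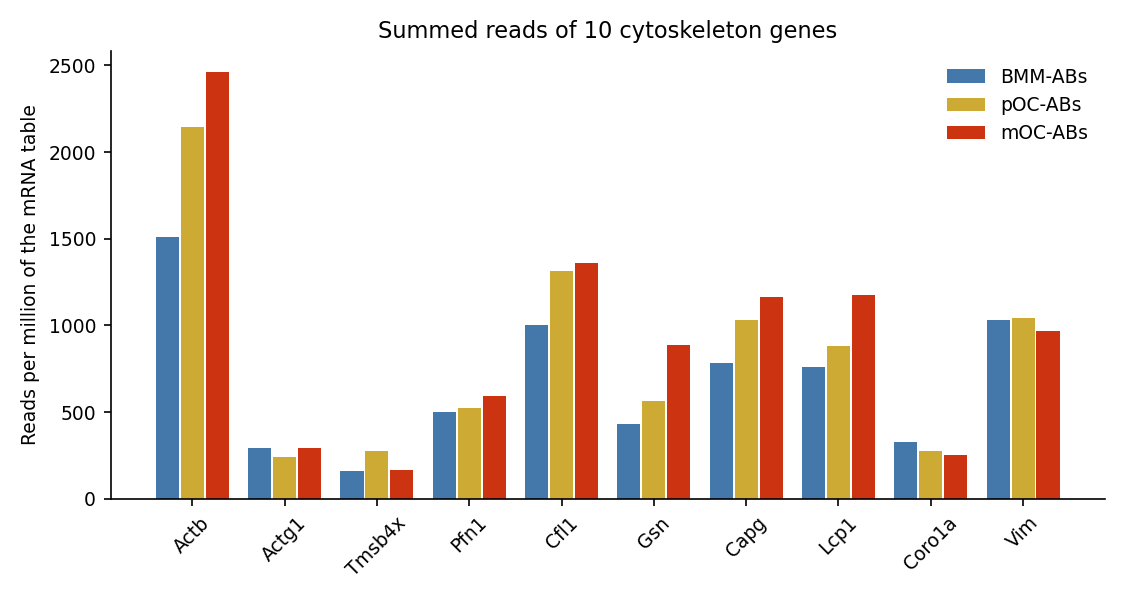
Bars give the level of each gene in RPM (vertical axis, from 0) in the single library of each group, with no error bar since each group has 1 library. Actb, Pfn1, Cfl1, Gsn, Capg and Lcp1 stand higher at each step from BMM-ABs to mOC-ABs, with Gsn going from 428 to 889.9. Coro1a stands lower at each step, from 327 to 254.

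Per length, in FPKM summed over the transcripts of a gene, Actb, Cfl1 and Capg were the 3 highest of the 10 genes in every library. In BMM-ABs the order of levels was Cfl1 (870 FPKM), Actb (865), Capg (754), Pfn1 (566), Vim (478), Lcp1 (294), Coro1a (226), Tmsb4x (204), Actg1 (185) and Gsn (171). In mOC-ABs it was Actb (1503 FPKM), Cfl1 (1182), Capg (1001), Pfn1 (678), Vim (452), Lcp1 (386), Gsn (350), Tmsb4x (216), Actg1 (188) and Coro1a (165). Gsn moved from the last place to the place after Lcp1, and Coro1a took the last place. No replicate spread exists to say which neighbours in these orders differ.

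Transcript shares divided the 10 genes into a large group that kept its leading transcript and a small group that did not. The leading transcript was the same in all 3 libraries for 7 genes, and in 6 genes a single transcript held over 80% of the reads everywhere. A move of at least 25 percentage points in some transcript's share was seen in 0 of the 10 genes in G1, where 16.9% of 4415 genes with at least 2 transcripts and at least 1000 reads moved that far. In G2 it was seen in 3 of the 10, against 16.4% of genes, and in G3 in the same 3, Capg, Lcp1 and Coro1a, against 16.5%. Just outside the limit lay Actg1, whose largest move in G2 was 23.7 points, and the nearest past it was Coro1a, at 35.5 points. The median of the largest moves was 2.05, 5.79 and 6.44 points for the 10 genes in G1, G2 and G3, beside 6.69, 6.52 and 6.16 points over all genes tested. The leading transcript thus differed between libraries in 3 of the 10 genes. How many of all genes kept their leading transcript is not given here. The 10 genes were picked from these same shares, so nothing is read from such counts about them.

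**Figure D2:**
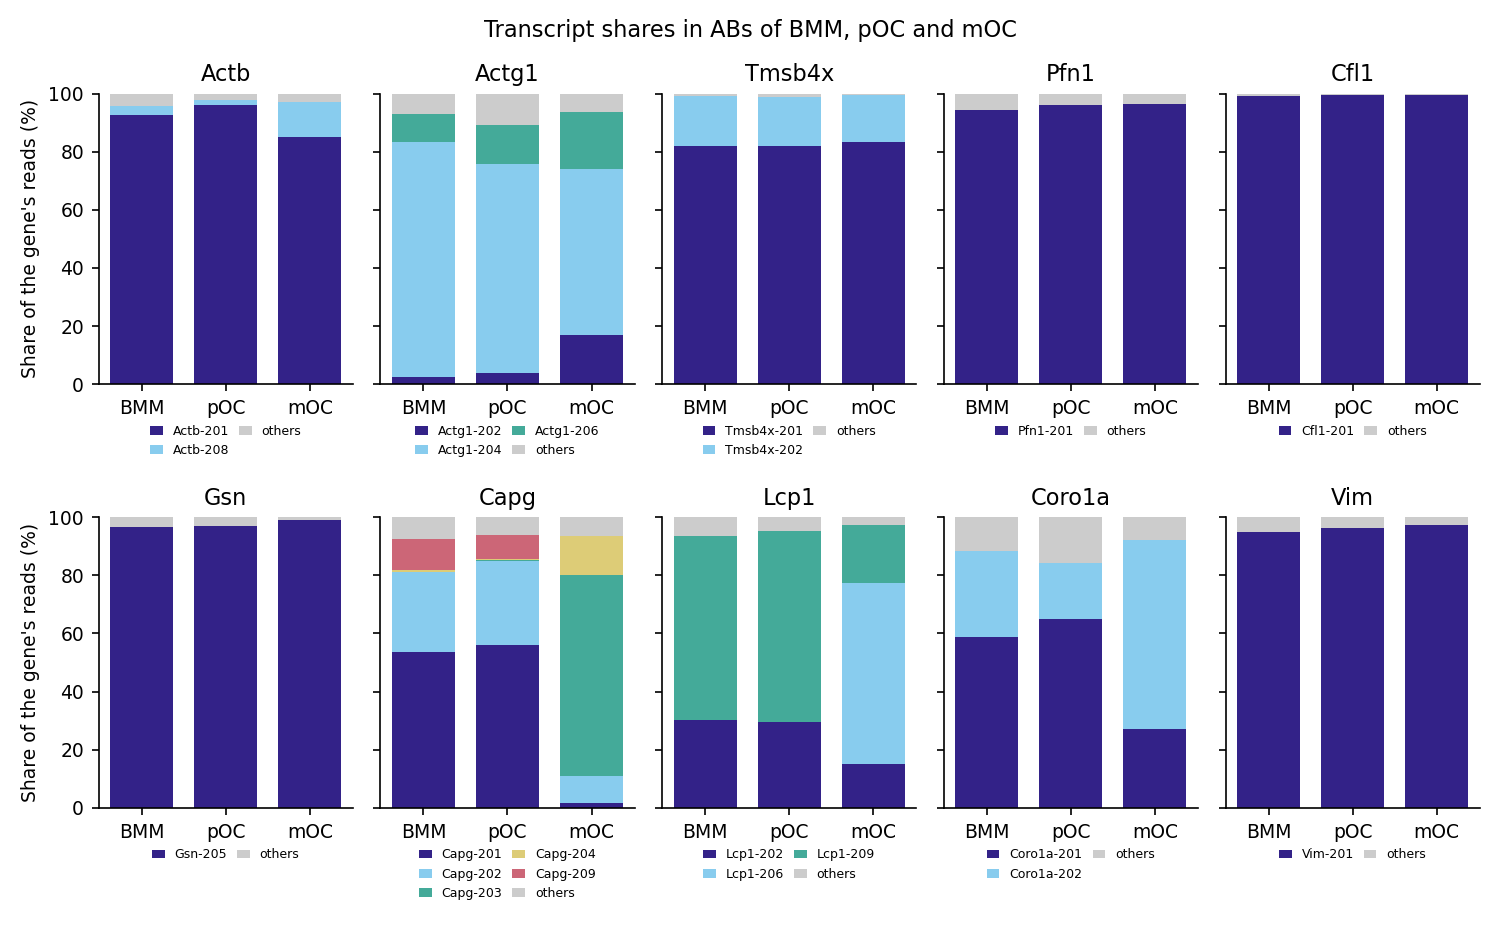
Stacked bars give the share (percent, vertical axis) of each transcript in the reads of its gene for ABs of BMM, pOC and mOC, 1 library each, and transcripts under 10% in every library are summed in grey as others. BMM-ABs and pOC-ABs have the same leading colour in each gene, and the largest move between them is 10.2 points, in Coro1a. In mOC-ABs the leading colour changes in Capg, Lcp1 and Coro1a.

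The 2 cytoplasmic actins differed in size and in pattern. Actb (beta-actin, chromosome 5) gave 13745, 15827 and 18970 reads, the most of the 10 genes in each library. Its log2 ratio was 0.50 (0.47 to 0.54) in G1, 0.70 (0.67 to 0.74) in G2 and 0.20 (0.17 to 0.23) in G3. Actb-201, with the full coding sequence, held 92.7%, 95.9% and 84.9% of these reads. Actb-208, a shorter coding model annotated with an incomplete end, held 403, 265 and 2287 reads, or 2.93%, 1.67% and 12.1%, so its share in mOC-ABs was the highest of the 3.

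Actg1 (gamma-actin, chromosome 11) gave 2670, 1800 and 2247 reads, with log2 ratios of -0.27 (-0.36 to -0.18) in G1, -0.01 (-0.09 to 0.07) in G2 and 0.26 (0.17 to 0.35) in G3. Its leading transcript Actg1-204 held 80.7%, 71.8% and 57.0% of the reads. Actg1-202, which has the same coding sequence and starts 451 bases farther upstream, held 69, 71 and 383 reads, or 2.58%, 3.94% and 17.0%. Actg1-206, a model annotated for nonsense-mediated decay, held 254, 244 and 438 reads, or 9.51%, 13.6% and 19.5%. The share of Actg1-204 was thus lowest in mOC-ABs, while those of Actg1-202 and Actg1-206 were highest there.

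The reads of both actins are uncertain because near-identical copies were listed beside them. Gm12715, a processed pseudogene that matches Actg1 over 1128 bases at 99.6% identity, was listed with 3715, 2850 and 3442 reads, more than Actg1 itself in each library. Gm8399, another Actg1 pseudogene, had 171, 76 and 175 reads. Lrrc58, a gene with a stretch of 392 bases like Actb, had 2102, 2955 and 1789 reads. Gm15725, a transcribed pseudogene that matches Actb over 767 bases at 96.0%, had 1162, 7 and 1176 reads, and was low in pOC-ABs alone. With the pseudogene reads added, the log2 ratios of Actg1 became -0.17, 0.08 and 0.25 in G1, G2 and G3, and those of Actb 0.39, 0.68 and 0.29. The coding sequences of Actb-201 and Actg1-204, both 1125 bases long, differ at 128 bases and are 88.6% identical, which is below the 95% identity over at least 100 bases used here to call a copy.

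Tmsb4x (thymosin beta 4, which sequesters actin monomers) and Pfn1 (profilin 1, which feeds monomers to growing ends) kept their transcripts and moved apart in their sums. Tmsb4x gave 1450, 2024 and 1300 reads, high in pOC-ABs and alike in the other two. Its log2 ratio was 0.78 (0.68 to 0.88) in G1, 0.08 (-0.03 to 0.19) in G2 and -0.70 (-0.80 to -0.60) in G3. Tmsb4x-201 held 81.9%, 82.0% and 83.2% of the reads and Tmsb4x-202, which has another first exon, 17.3%, 16.8% and 16.2%. Pfn1 gave 4553, 3889 and 4549 reads, with log2 ratios of 0.07 (0.01 to 0.14) in G1, 0.24 in G2 and 0.17 in G3. Pfn1-201 held 94.3% to 96.5% of these reads. The sign of Pfn1 in G1 turned under 1 of the other scalings, where its log2 ratio was -0.13.

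Cfl1 and Gsn, which sever filaments, both had a single leading transcript. Cfl1 (cofilin 1, chromosome 19) gave 9116, 9701 and 10479 reads, with log2 ratios of 0.39 (0.35 to 0.43) in G1, 0.44 (0.40 to 0.48) in G2 and 0.05 (0.01 to 0.09) in G3. Cfl1-201 held at least 99.3% in each library, and the largest move of a share was 0.299 points, the smallest of the 10 genes in G1. A processed pseudogene, Gm6180, which matches Cfl1 over 498 bases, had 226, 214 and 279 reads.

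Gsn (gelsolin, which podosomes of osteoclasts need, chromosome 2) gave 3899, 4150 and 6857 reads. Its level was 428, 562 and 889.9 RPM, highest in mOC-ABs, and its log2 ratio was 0.39 (0.33 to 0.45) in G1, 1.05 (0.998 to 1.11) in G2 and 0.66 (0.61 to 0.72) in G3. This made 2.08-fold in G2, just past the limit, while scaling to the reads of both tables left none of the 10 genes past it. Gsn-205 held 96.6%, 97.0% and 98.8% of the reads, and its own reads were 3768, 4025 and 6778.

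Capg, the gelsolin relative that caps filaments without cutting them, had the largest share moves of the 10 genes, 68.9 points in G2 and 68.6 points in G3. The gene lies on chromosome 6 (GRCm38 chr6:72544391-72562983, plus strand) and gave 7106, 7614 and 8951 reads, with log2 ratios of 0.40 (0.35 to 0.45) in G1, 0.57 (0.53 to 0.62) in G2 and 0.17 (0.13 to 0.22) in G3. Capg-201 held 3821, 4265 and 157 reads, or 53.8%, 56.0% and 1.75% of the gene. Capg-203 held 12, 36 and 6183 reads, or 0.169%, 0.473% and 69.1%. Capg-201 therefore led in BMM-ABs and in pOC-ABs, and Capg-203 led in mOC-ABs.

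The other Capg transcripts moved in both directions. Capg-202, whose first exon lies 4736 bases beyond the start of Capg-203, held 1933, 2192 and 841 reads, or 27.2%, 28.8% and 9.40%. Capg-204, a coding model with an incomplete end whose first exon lies closest to the coding exons, held 38, 14 and 1191 reads, or 13.3% of the gene in mOC-ABs. Capg-209, also an incomplete model, held 762, 630 and 1 reads, a log2 ratio of -9.33 in G2 with an interval from -14.64 to -6.85. In log2 ratios of RPM, Capg-203 differed by 9.25 (8.44 to 10.20) in G2 and 7.36 (6.89 to 7.88) in G3, and Capg-201 by -4.37 and -4.82, while the gene sum differed by 0.57 and 0.17.

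The annotated start of Capg-203 lies only 146 bases from that of Capg-201, and their first exons (76 and 130 bases) do not overlap. Capg-203 has 2 exons before the start-codon exon, of 130 and 89 bases, and Capg-201 has 1. Both share 1169 bases, 84.2% of Capg-203 and 93.7% of Capg-201, and the coding sequence of 1047 bases is the same in Capg-201, Capg-202 and Capg-203. Those 3 together held 81.1% (80.2 to 82.0), 85.3% (84.5 to 86.1) and 80.2% (79.4 to 81.0) of the reads of Capg. The share of reads on this coding sequence thus differed by less than 1 point between BMM-ABs and mOC-ABs.

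Lcp1 (L-plastin, the filament bundler of blood cells) lies on chromosome 14 (GRCm38 chr14:75131101-75230842, plus strand) and gave 6912, 6507 and 9072 reads. Its log2 ratio was 0.21 (0.16 to 0.26) in G1, 0.63 (0.59 to 0.68) in G2 and 0.42 (0.37 to 0.46) in G3. Lcp1-209 held 4367, 4279 and 1799 reads, or 63.2%, 65.8% and 19.8%, and Lcp1-202 held 2085, 1920 and 1363 reads, or 30.2%, 29.5% and 15.02%. Lcp1-206 held 7 reads in BMM-ABs and 3 in pOC-ABs, against 5660 in mOC-ABs, where this was 62.4% of the gene.

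In mOC-ABs Lcp1-209 and Lcp1-202 were thus still listed, at lower shares than in the other libraries. The log2 ratio of Lcp1-206 was 9.90 (8.86 to 11.21) in G2 and 10.82 (9.27 to 13.10) in G3, and that of Lcp1-209 was -1.04 (-1.12 to -0.96) in G2. The start of Lcp1-206 lies 53997 bases downstream of that of Lcp1-209 and 58775 bases downstream of that of Lcp1-202, so here the first exons are far apart. From the start-codon exon on, Lcp1-206 and Lcp1-209 hold the same coding sequence of 1881 bases, shared also by Lcp1-202. Transcripts with this coding sequence held 93.4%, 95.3% and 97.2% of the reads of Lcp1.

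Coro1a (coronin 1A, the coronin of blood cells) had the lowest log2 ratio of the 10 genes in G2, and its 2 main forms start close to each other. It lies on chromosome 7 on the minus strand and gave 2980, 2046 and 1958 reads, with log2 ratios of -0.24 (-0.32 to -0.16) in G1, -0.37 (-0.45 to -0.28) in G2 and -0.12 (-0.21 to -0.03) in G3. Coro1a-201 held 1755, 1329 and 529 reads, or 58.9%, 65.0% and 27.0%. Coro1a-202 held 880, 396 and 1273 reads, or 29.5%, 19.4% and 65.0%. Unlike Capg-203 and Lcp1-206, Coro1a-202 was already well covered in BMM-ABs, was lowest in pOC-ABs and was highest in mOC-ABs.

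The log2 ratio of Coro1a-202 was -0.85 (-1.03 to -0.68) in G1, 0.77 (0.65 to 0.90) in G2 and 1.62 (1.46 to 1.79) in G3, and that of Coro1a-201 was -1.49 (-1.63 to -1.35) in G2. The starts of these transcripts lie 596 bases apart, and the coding sequence of 1383 bases is the same. Together they held 88.4%, 84.3% and 92.0% of the reads of Coro1a. Coro1a-212, listed with 0, 119 and 0 reads, made up part of the remainder in pOC-ABs and was singled out here after its values were seen.

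**Figure D3:**
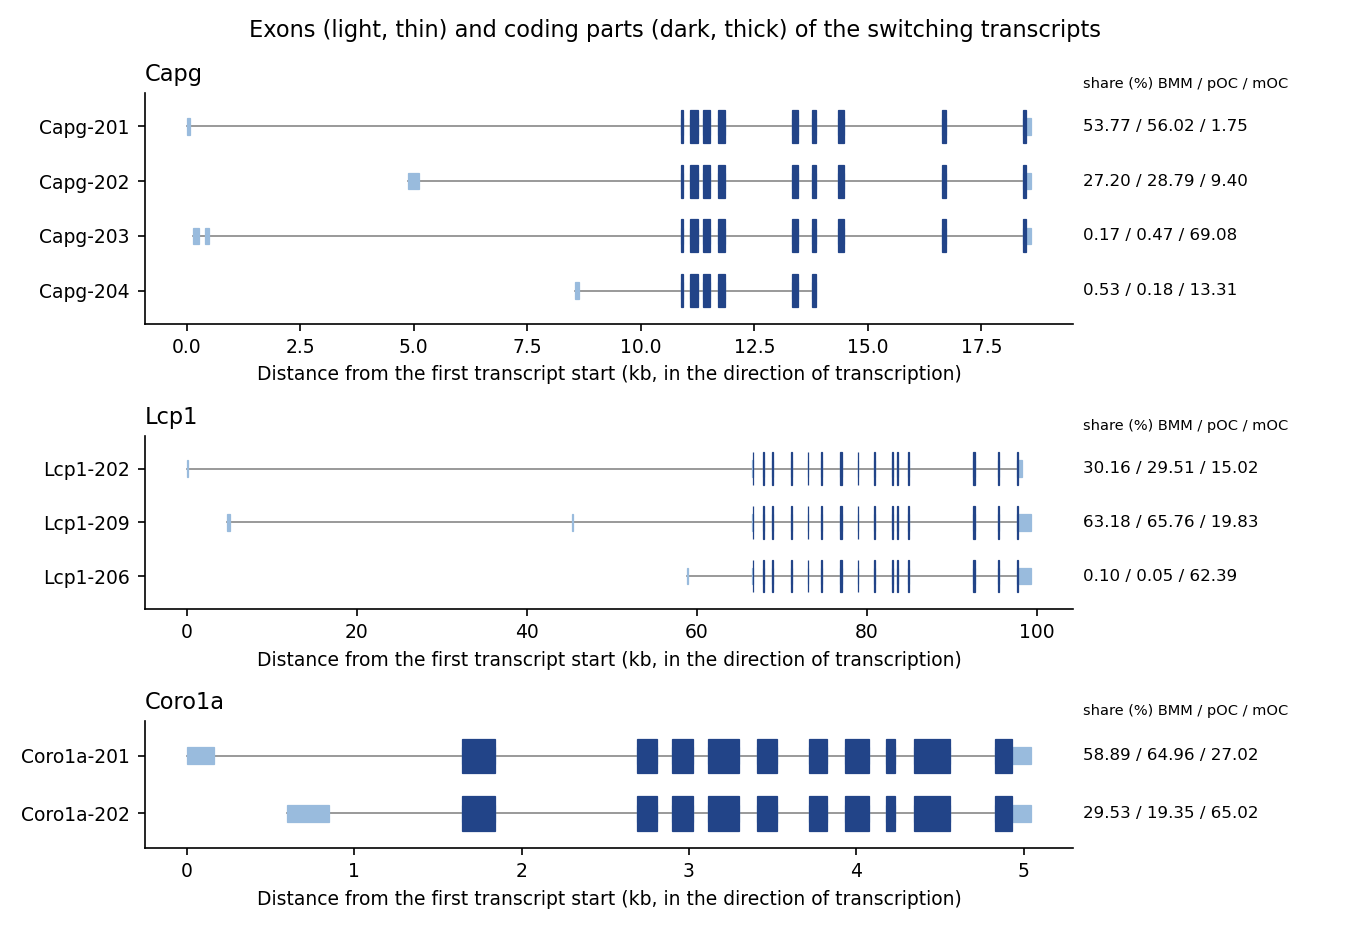
Each line is an annotated transcript of Capg, Lcp1 or Coro1a, with exons as thin light boxes and coding parts as thick dark boxes, placed by their distance in kb from the first of the starts shown, in the direction of transcription. The numbers at the right give its share (percent) for each library in turn, and the coding boxes line up among the forms that trade places while the exons before them do not.

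Both Coro1a starts coincide with starts in RefSeq, so their surroundings are shown, from 250 bases before to 50 bases after each start on the minus strand of GRCm38.p6. None of the RefSeq starts of Capg and Lcp1 coincided with the starts of their named transcripts. The capitals mark the GC box (GGGCGG on either strand).
Coro1a-201, chr7:126704767-126705066: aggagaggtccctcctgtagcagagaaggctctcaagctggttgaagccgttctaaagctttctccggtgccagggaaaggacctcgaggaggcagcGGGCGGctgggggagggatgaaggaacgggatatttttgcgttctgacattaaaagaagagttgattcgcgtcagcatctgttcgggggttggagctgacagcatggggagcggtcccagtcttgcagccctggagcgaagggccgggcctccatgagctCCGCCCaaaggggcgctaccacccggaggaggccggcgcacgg
Coro1a-202, chr7:126704171-126704470: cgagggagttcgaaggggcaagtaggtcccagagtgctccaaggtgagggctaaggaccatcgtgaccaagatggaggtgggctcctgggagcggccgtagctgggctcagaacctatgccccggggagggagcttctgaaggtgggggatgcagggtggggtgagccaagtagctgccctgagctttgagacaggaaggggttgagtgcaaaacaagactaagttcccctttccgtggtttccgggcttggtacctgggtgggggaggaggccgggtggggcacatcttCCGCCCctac
The upstream start, that of Coro1a-201, has 2 GC boxes in its window and that of Coro1a-202 has 1. A GC box is found in 35.7% of 32851 mouse promoter windows of this length. On either strand, neither window holds the AP-1 motif TGANTCA, which 7.81% of windows hold. The TATA box, searched as TATAAA and held by 13.6% of windows, had no match. The core of the PU.1 motif, GAGGAA, held by 28.3% of windows, had none either.

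Vim (vimentin, an intermediate filament protein and no part of the actin system itself) had log2 ratios close to 0, and the largest of them in size, -0.11, was the smallest such value of the 10 genes. It gave 9387, 7722 and 7472 reads, or 1032, 1045 and 969.7 RPM, with log2 ratios of 0.02 (-0.02 to 0.06) in G1, -0.09 (-0.13 to -0.05) in G2 and -0.11 (-0.15 to -0.06) in G3. Vim-201 held 94.9%, 96.1% and 97.2% of its reads. Of the 1372 circular RNAs listed, 1 came from the 10 genes, from Vim (GRCm38 chr2:13574634-13574911), with 0, 7 and 0 junction reads. A count of 0 allows up to 0.0879% of all junction reads in the BMM library and 0.0747% in the mOC library.

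Summing transcripts with the same coding sequence, an alternative chosen after the shares were seen, removed the large moves from the 10 genes. The forms of Capg, Lcp1 and Coro1a that traded places share their coding sequence, so moves between them vanish by construction. The largest move in G2 was then 12.8 points in Capg, 3.80 points in Lcp1, 3.61 points in Coro1a and 9.98 points in Actg1, so that 0 of the 10 genes passed 25 points in G2 and in G3. The move left in Capg was that of Capg-204, a model with an incomplete end. Its coding parts match the first ones of the shared coding sequence. Over all genes the percentage past 25 points was then 13.2% in G2 and in G3, down from 16.4% and 16.5%. Among the genes past the limit in G2, the gaining and the losing transcript had the same coding sequence in 19.5%, had first exons that do not overlap in 36.7%, and had both in 11.2%. All 3 of Capg, Lcp1 and Coro1a had both for the pairs described above. These genes and pairs were picked from the same shares, so nothing is read from setting them beside these percentages.

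**Figure D4:**
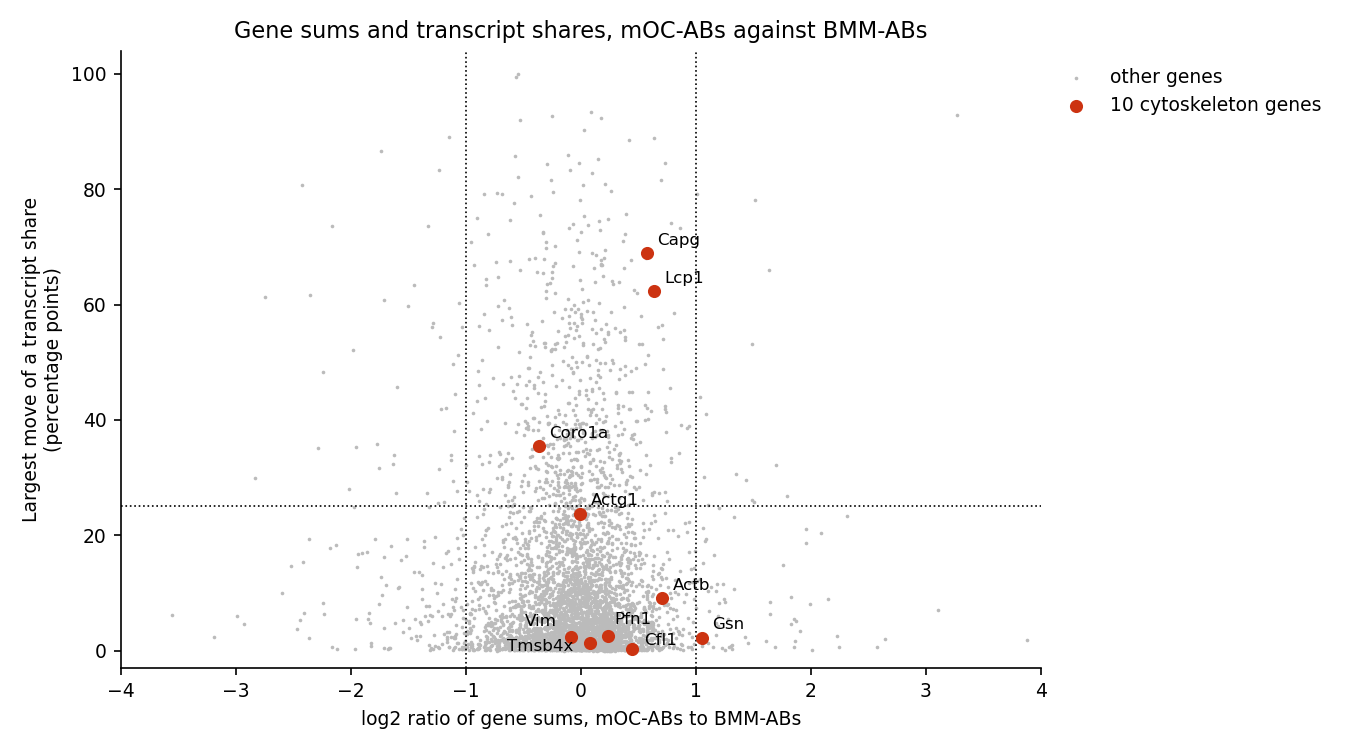
Each point is a gene with at least 2 transcripts and at least 1000 reads, with the log2 ratio of its gene sum in mOC-ABs to BMM-ABs on the horizontal axis and the largest move of a transcript share, in percentage points, on the vertical axis. Red points are the 10 genes, dotted lines mark 2-fold and 25 points, and 3 of the 4415 genes lie beyond the horizontal axis. Gsn lies past the 2-fold line with a move of 2.21 points, and Capg, Lcp1 and Coro1a lie above the 25-point line and inside 2-fold.

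Of the listed lncRNAs that overlap the 10 genes in position, those at Lcp1 had the most reads. The lncRNA NONMMUT021642.2 (GRCm38 chr14:75229436-75230816) had 5559, 5462 and 7199 reads and lies with all its 1381 bases inside the exons of Lcp1-206 and of Lcp1-209. Reads from it and from the 3′ end of Lcp1 cannot be told apart here. NONMMUT021638.2 (GRCm38 chr14:75176865-75182956), which overlaps Lcp1-209 by 69 bases, had 0, 0 and 78 reads, so it was listed above 0 in mOC-ABs alone. Bola2, on the strand opposite to Coro1a, had 663, 566 and 512 reads, and Snx32, opposite to Cfl1, had 110, 79 and 84 reads. No listed lncRNA overlapped Capg or Coro1a. Among the listed transcripts, no near-identical copy of at least 100 bases was found for Tmsb4x, Pfn1, Gsn, Capg, Coro1a or Vim. Copies that are not listed could not be found. Shorter exons, such as the first exon of Capg-201 with 76 bases and the second exon of Capg-203 with 89 bases, could not give a match by themselves.

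Other genes of the actin cytoskeleton were taken from a list of 99, of which 87 had rows and 67 had at least 1000 reads. In G1 1 of the 67 was above 2 and 0 were below 0.5, in G2 3 were above and 4 below, and in G3 1 was above and 4 were below. Their median log2 ratio was 0.04, 0.08 and 0.00 in G1, G2 and G3, closer to that of all genes than to that of the 10 genes. A share moved by 25 points or more in 9, 11 and 11 of the 63 with at least 2 transcripts, or 14.3%, 17.5% and 17.5%, near the percentages over all genes.

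In G1 Tmsb10, the sister of Tmsb4x, was higher like it, with 309, 686 and 218 reads and a log2 ratio of 1.45 (1.26 to 1.65). Next came Tpm1 (tropomyosin 1, which coats filaments) at 0.97 and Arpc3 (an Arp2/3 subunit) at 0.96. The lowest were Plec (plectin) at -0.75, Vcl (vinculin) at -0.73 and Flna (filamin A) at -0.72. In G3 the direction of Tmsb10 was turned, at -1.71 (-1.94 to -1.49), so that both thymosins stood highest in pOC-ABs.

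In G2 the highest were Tpm1 (830, 1316 and 1512 reads) with a log2 ratio of 1.11, Actn1 (alpha-actinin 1, a crosslinker of filaments, with 1353, 1700 and 2459 reads) at 1.10 and Myo1e (a class I myosin, with 1814, 1775 and 3187 reads) at 1.05. The lowest were Lsp1 (a leukocyte actin-binding protein, with 1139, 627 and 335 reads) at -1.53, Ezr (ezrin, a membrane linker) at -1.32 and Myo1f (the class I myosin of leukocytes) at -1.21. Ssh2, a cofilin phosphatase named here after its value was seen, was the fourth below 0.5, at -1.19. In G3 the genes on the high side included Myo1e at 0.78 and Actn4 at 0.52, and the lowest besides Tmsb10 were Ezr at -1.29 and Arpc5l (an Arp2/3 subunit) at -1.19. Cap1, a monomer-recycling protein named after its value was seen, was the other gene below 0.5, at -1.18.

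**Figure D5:**
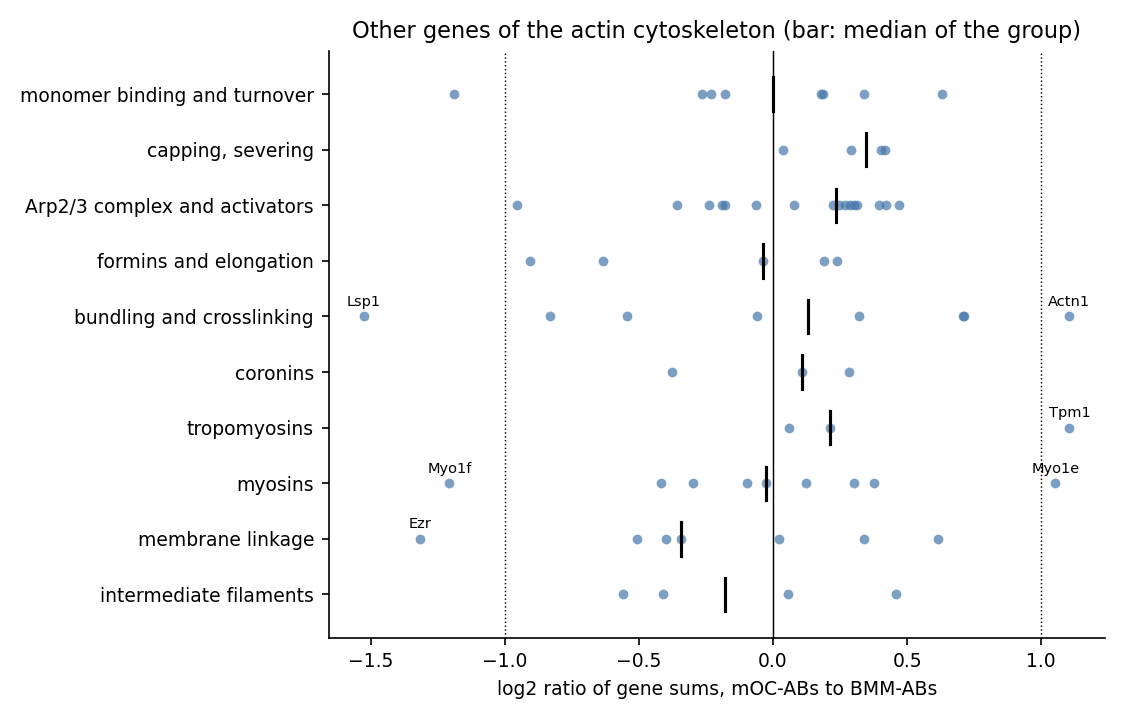
Each point is a gene of the list with at least 1000 reads, placed by the log2 ratio of its gene sum in mOC-ABs to BMM-ABs (horizontal axis) within its functional group (vertical axis), and black bars are the medians of the groups. The 6 genes named by rule are labelled, dotted lines mark 2-fold, and the medians of the groups lie from -0.34 to 0.35.

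The largest share moves of this list were in Capzb, Actr3, Myl12a, Zyx and Fmnl1. Capzb (a subunit of the capping protein) gave 2641, 2329 and 2987 reads, and its Capzb-201 went from 1924 and 1787 reads to 0 in mOC-ABs while Capzb-204 went from 28 and 30 to 2675. As in Capg and Lcp1 the leading form differed in mOC-ABs, but the 2 Capzb forms differ in coding sequence. In Actr3 (the Arp3 subunit, 2009, 1508 and 1327 reads) pOC-ABs already differed from BMM-ABs, with Actr3-202 at 15.7%, 81.2% and 91.3%. In Myl12a (a myosin light chain) and Zyx (zyxin, of focal adhesions) pOC-ABs were the odd library, with Myl12a-201 at 85.5%, 11.1% and 86.6% and Zyx-202 at 37.1%, 1.69% and 64.4%. Fmnl1-202, a form of a formin of blood cells, held 6.27%, 63.4% and 35.0%. The forms that gained and lost the most share have the same coding sequence in Actr3, Myl12a and Zyx, but not in Fmnl1. In Actr3 and Myl12a their first exons also do not overlap. A switch between forms with the same coding sequence was thus not particular to Capg, Lcp1 and Coro1a.

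Across the whole table, genes that joined a moved share to a gene sum within 1.5-fold, as Capg and Coro1a did, were sought among 457 other genes with at least 5000 reads and a gene ratio inside that limit in all 3 comparisons, of which 105, or 23.0%, had a share move of 25 points or more. Lcp1, at 1.55-fold in G2, lay beyond this limit itself. By the size of the largest move the genes found included Ldha, Capzb, Ewsr1 and Supt5. Ldha (a lactate dehydrogenase) gave 13579, 12213 and 12967 reads, and its Ldha-202 held 4.61%, 13.7% and 96.9% of them. Ewsr1-202 held 0%, 83.8% and 38.8%, and Supt5-208 held 12.9%, 25.9% and 95.6%.

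How the authors divided the reads of exons that transcripts share is not given in the sources used here, and the forms of Capg, Lcp1 and Coro1a that traded places share from 65.8% to 94.2% of their bases. The bases that tell these forms apart lie in the exons before the coding sequence and at the 3′ ends, which reach slightly further in Capg-201 than in Capg-203 and in Lcp1-209 than in Lcp1-206 and lie further back in Lcp1-202, and reads by exon were not analysed here. The gene sums and the shares of transcripts with the same coding sequence do not depend on how the reads were divided between forms with the same coding sequence.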

How the data were processed

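The authors sequenced RNA of ABs as paired-end libraries from poly-T selected RNA. The submitters' notes name FastQC, HISAT2, StringTie and the build GRCm38, with no versions or settings. The deposited mRNA and lncRNA tables hold read counts and FPKM for each transcript, and the authors' FPKM of mRNAs are scaled to the total count of the mRNA table. The deposited circRNA table holds junction read counts and SRPBM, a score for junction reads scaled per library, of which only the junction counts were used. The columns of 0 h, 24 h and 72 h were taken for the 3 stages in this order, and no column was left out for want of a sample.

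Genes were taken from GENCODE M21 (211 of 56651 transcripts had no entry) and summed per gene with Python 3.11.15, pandas 2.3.3 and SciPy 1.17.1. With 1 library per group no test was made. A gene was called at a ratio above 2 or below 0.5, the fold limit of the methods, and a share move at 25 percentage points. The calculation of sums and moves was tested on simulated data with known changes and counting error alone. These data held no spread between libraries and no error in dividing reads between transcripts, so neither was checked. Copies were sought with BLAST 2.17.0 (95% identity over 100 bases) among the listed transcripts that GENCODE holds.

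All 10 genes, their transcripts with at least 10% of the gene in some library, the 3 highest and 3 lowest list genes per comparison, the 5 list genes with the largest moves and the 5 other genes with the largest moves among those with sums within 1.5-fold are named, except that some genes these rules name are not reported here. The members and lists were chosen with earlier results of these data known. Other scalings, FPKM, pseudocounts, filters and limits were tried as alternatives.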

Additional observations from a re-analysis of the deposited data

How the results depend on the processing

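No paired analysis was possible because each group has 1 library, and for the same reason no library could be left out. Of the gene sums, the sign of the log2 ratio turned under some scaling for Pfn1 and Vim in G1 and for Actg1 and Tmsb4x in G2, all close to 0. At a fold limit of 1.5, the 10 genes past it numbered 1, 3 and 2 in G1, G2 and G3, the list genes above it 10, 7 and 2 and below it 6, 8 and 9, and 20.2%, 18.6% and 12.0% of all genes were past it. With no filter on reads 19.6%, 21.7% and 19.4% of all genes were past 2-fold, and in G3 6.06% with at least 100 reads. With protein-coding transcripts only, 5.63% of genes passed in G3, and in G1 3 list genes were above 2 and 1 was below 0.5. Scaling to both tables left 0 of the 10 genes past 2-fold in G2 and moved the median of the list to -0.16 in G1 and 0.10 in G3. At a limit of 10 points 1 and 5 of the 10 genes had a share move in G1 and G3, and 39.2%, 38.7% and 38.1% of all genes did in G1, G2 and G3. At 50 points 4.51%, 4.96% and 4.35% of all genes did. Summing transcripts with the same coding sequence, chosen after seeing the data, left 0 of the 10 genes past 25 points in G2 and 0 in G3. The cause of these shifts was not tested, with 2 exceptions that hold by construction. A lower or higher limit calls more or fewer genes, and summing forms with the same coding sequence removes moves between them. In FPKM in place of reads, Capg, Lcp1 and Coro1a stayed past 25 points in G2 and in G3.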
